A study of Triticum aestivum with 8 samples.

Results

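The crown transcriptomes of a freeze-resistant (FR) and a freeze-susceptible (FS) winter wheat line were compared before cold acclimation. The 2 FR NT arrays were set against the 2 FS NT arrays, 4 of the 8 arrays of the series, over 61115 probe sets of the Affymetrix wheat array. FR (SD16029) and FS (SD16169) are both azide-induced mutants of the winter cultivar Winoka, each represented by 1 line, so that both groups carry mutagenized Winoka genomes and no unmutagenized parent was compared here. The non-treated (NT) plants were grown 4 to a pot in a greenhouse at 22 to 28°C with a 14 h photoperiod, are given as 25°C in the series design, and were harvested at the 3rd to 4th leaf stage. The other 4 arrays (FR CA and FS CA) hold the same lines after 4 weeks at 4°C. Crowns of 3 biological replicates were pooled before RNA isolation, and the study describes the pair of arrays in a group as technical replicates. Whether both arrays of a group came from 1 RNA pool is not stated in the sources used here. The p-values and intervals speak only of the spread from array to array, and with pooled crowns they do not measure the spread among single plants.

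The crown is the short stem base between roots and leaves, which holds the shoot meristem and the bases of the young leaves and tillers, and from which a winter cereal regrows after freezing. In the warm it is a site of cell division and expansion, with high demand for histones, tubulins and wall-forming enzymes. The cold-response pathway of cereals runs from the CBF transcription factors, which bind the C-repeat element in promoters, to Cor/Lea genes, many of which encode hydrophilic proteins that protect membranes and proteins when cells lose water. The question addressed is how far the lines already differed before this pathway was engaged by cold.

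The deposited signals are gcRMA values on a log2 scale, with a shared lower limit of 2.15, called the floor here, and 19278 of the 61115 probe sets were within 0.001 of it on all 4 NT arrays. The array medians were 2.90 to 2.95 in NT, and 31185 probe sets had a mean over the 8 arrays above the median of all tested values, 2.90. These are called above the median here, and 798 of them had a mean over the 4 NT arrays at or under it, so that they passed through their CA signals. Gene names rest on the array's annotation, which gives a symbol to 1273 of the tested probe sets (771 symbols) and none to 59842. Probe sets differ in how well they bind, so signals of different probe sets are given as ranks and not as amounts of RNA, and in tissue RNA fewer cells of a type and less RNA per cell cannot be told apart. Control probe sets for the ends of one transcript differed by replicate number and not by line. The 5′ probe set of sucrose synthase read 8.04 and 6.11 in FR NT and 7.75 and 6.24 in FS NT for replicates 1 and 2, while its 3′ probe set read 13.2 to 13.3 on all 4 arrays.

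The warm crowns of FR and FS were more alike than repeat arrays of the same line. Above the median, the median absolute log2 difference was 0.202 between the 2 FR NT arrays and 0.187 between the 2 FS NT arrays. It was smaller in each of the 4 pairs that joined an FR array to an FS array, at 0.137 to 0.179. The Pearson correlation over all 61115 probe sets was 0.9951 and 0.9954 within the lines and 0.9964 to 0.9972 between them (probe sets do not count as independent replicates). After cold acclimation the pairs overlapped, with 0.131 and 0.187 within the lines and 0.178 to 0.241 between them. An NT array differed from a CA array by 0.900 to 1.02. No test was made of these distances, since pairs share arrays.

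**Figure D1:**
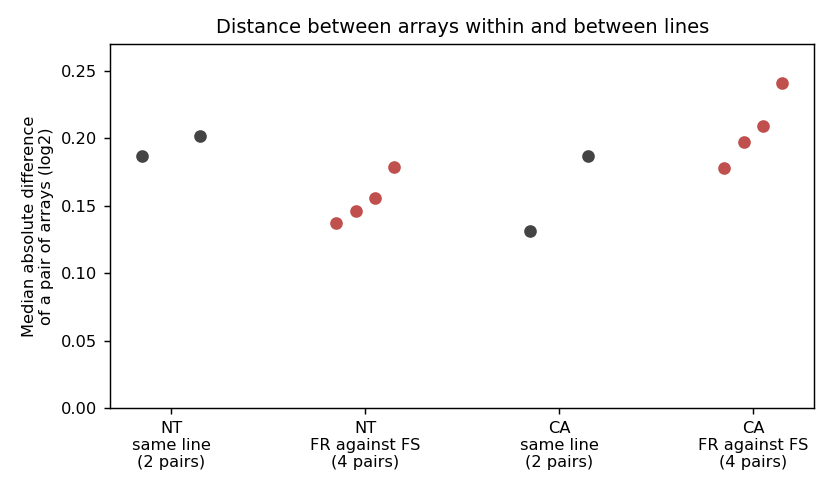
Median absolute log2 difference of each pair of arrays (y axis), over probe sets above the median, for pairs of the same line and pairs of FR with FS, in NT and in CA; each point is a pair. In NT the 4 FR with FS pairs (0.137 to 0.179) all lie below the 2 pairs of the same line (0.187 and 0.202), while in CA the ranges overlap.

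Averaged over its arrays, each line gave nearly the same profile. The means of FR NT and FS NT had a Pearson r of 0.9992 over all probe sets and 0.9982 over those above the median. The median of FR minus FS was 0 over all tested probe sets and -0.03 over those above the median, where the median absolute difference was 0.0867. There 95 in 100 probe sets differed by at most 0.382, and 99 in 100 by at most 0.651. A difference over 1 log2 unit (2-fold) was found for 60 of the 31185 probe sets (0.192%). In 40 of these (23 higher and 17 lower in FR) the arrays of the lines did not overlap, beside 10.4% of all tested. The 60 were picked on their line difference, which makes separate arrays more likely, so the 40 are no separate support. A single probe set differed by over 2 log2 units.

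The limma test called 13 of 61115 probe sets at a Benjamini-Hochberg adjusted p under 0.05 (0.0213% of those tested), 8 higher in FR (0.0131%) and 5 lower (0.00818%). None of the 13 has a gene symbol, and none had a mean above the median. Their signals on the NT arrays lay between 2.15 and 3.0, and their differences between 0.08 and 0.59, at limma adjusted p of 0.00032 to 0.0399. At an unadjusted p under 0.05 there were 874 probe sets (1.43%), 376 higher and 498 lower in FR. Arrays of the lines did not overlap for 6366 probe sets (10.4%), 2292 higher and 4074 lower in FR, a split of 36.0% higher that turned to 64.4% higher when each array was centred on its median. Leaving out any 1 of the 4 NT arrays raised the calls to between 859 and 1212, of which 59 to 104 were above the median, and leaving out replicate 2 of both lines raised them to 2834, 435 of them above the median. In those fits an array left alone borrows its variance from the other groups.

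**Figure D2:**
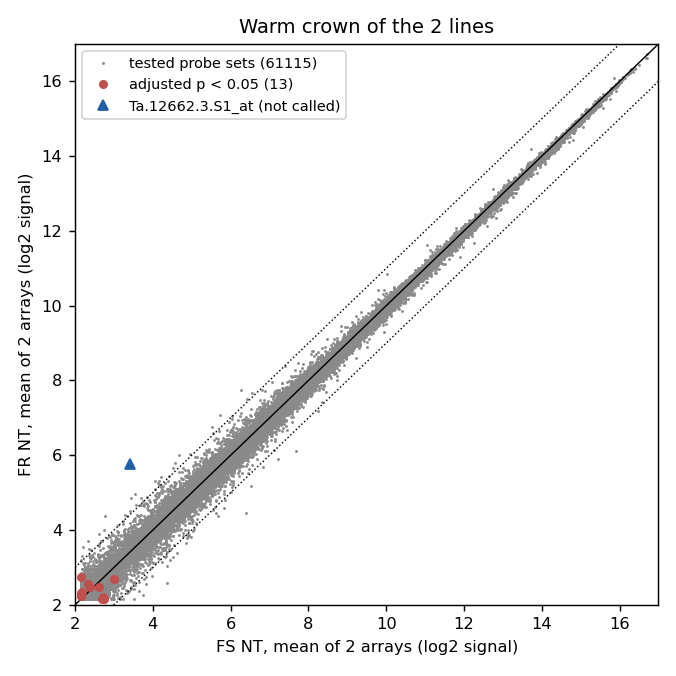
Mean log2 signal of FR NT (y axis) against FS NT (x axis) for 61115 probe sets, with the line of equality and dotted lines at a difference of 1 log2 unit. The 13 called probe sets (red) cluster near the floor, and 1 unnamed probe set (blue triangle) stands apart at 5.78 in FR and 3.41 in FS without passing the test.

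The called probe sets with the widest separation, 2 in each direction and all unnamed, stood just above the floor in 1 line. The widest in the direction of FR read 2.73 and 2.75 in FR NT and 2.16 and 2.15 in FS NT, a difference of 0.58 (95% interval 0.56 to 0.60, limma adjusted p = 0.00032). The next read 2.55 and 2.56 in FR NT and 2.33 on both FS NT arrays, a difference of 0.23 (limma adjusted p = 0.00164). The widest in the direction of FS read 2.15 on both FR NT arrays and 2.77 and 2.72 in FS NT, a difference of -0.59 (limma adjusted p = 0.00391). Each of these 3 separated the lines without overlap. The next in that direction read 2.16 on both FR NT arrays and 2.66 and 2.74 in FS NT, a difference of -0.54 (limma adjusted p = 0.0399), and lost its call without any 1 of the CA arrays. Every value of these 4 lay under the median of its array. With values raised to the array median, 1 probe set was called, none of the 13.

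Above the median, the widest difference belonged to another probe set with no symbol, chosen after its values were seen. It read 5.76 and 5.79 in FR NT and 3.28 and 3.55 in FS NT. FR was thus 5.14-fold higher, a log2 difference of 2.36 (95% interval 1.93 to 2.79), with no overlap between the lines. It missed the threshold over all probe sets (limma adjusted p = 0.122). It passed relative to the poly-A spike-ins (limma adjusted p = 0.0056), and over 18 alternatives its adjusted p ranged from 0.0056 to 0.698. Without any 1 NT array its difference was 2.23 to 2.50, in fits that leave a line with a single array. After cold its line difference was -0.01. The next widest without overlap, also unnamed, was lower in FR by 1.95 but rested on 1 array, with 3.98 and 4.93 in FR NT against 7.85 and 4.97 in FS NT (-0.51 without FS NT replicate 1).

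None of the 1273 probe sets with a symbol was called by limma, beside 0.0213% of all tested. At an unadjusted p under 0.05 there were 17 (1.34%), beside 1.43% of all tested, and for 12.5% the arrays of the lines did not overlap, beside 10.4%. The lowest limma adjusted p among them was 1. Among those above the median whose arrays did not overlap, the widest differences all missed the threshold. In the direction of FR they were a probe set annotated to rbcl (0.46), LOC606319 (0.44), LOC543103 (0.36), LOC543427 (0.34) and LOC606320 (0.30). LOC543103 read 2.83 on both FR NT arrays and 2.62 and 2.32 in FS NT, under the array medians, and was above the median only through its CA arrays. In the direction of FS they were LOC780581 (-0.85), PCM (-0.80), LOC100037651 (-0.76), another probe set annotated to rbcl (-0.59) and LOC542874 (-0.52). PCM (LOC543193), whose synonym PIMT stands for a methyltransferase that repairs damaged aspartyl residues in proteins, read 3.76 and 3.17 in FR NT and 4.45 and 4.07 in FS NT. LOC780581 read 5.36 and 5.03 in FR NT and 6.34 and 5.76 in FS NT. The FS arrays were the higher ones for both genes, by less than 1 log2 unit.

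The size of difference the arrays could resolve followed the strength of the signal. The 95% interval of FR minus FS reached 0.463 log2 units on either side for the median probe set above the median, a 1.38-fold change, and 0.195 and 1.18 at the 10th and 90th percentiles. The interval lay within 1 log2 unit for 34400 of the 41837 probe sets above the floor on at least 1 NT array (82.2%), and for 24534 of the 31185 above the median (78.7%). It lay within 0.58 log2 units (1.5-fold) for 15762 of these (50.5%). For 1081 probe sets above the median it extended past 2 log2 units. Where a probe set sits at the floor on all 4 arrays a narrow interval carries no information on the gene. The 34400 also include probe sets just above the floor, where gcRMA shrinks differences. There a narrow interval does not exclude a difference in RNA.

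By the mean signal over the 4 NT arrays, the reach of the interval was 0.593 (1.51-fold) for the 3312 probe sets between the median and 4, and 0.66 (1.58-fold) for the 5371 between 4 and 6. It narrowed to 0.418 (1.34-fold) for the 7364 between 8 and 10 and to 0.251 (1.19-fold) for the 760 above 14. A difference over 2-fold lay outside the interval for 61.1% of the probe sets between 4 and 6, 86.5% of those between 8 and 10 and 97.9% of those above 14. The median absolute difference between the line means was 0.138, 0.082 and 0.0452 in the same bins. No probe set with an NT signal above 8 differed between the lines by over 1 log2 unit, against 78 of the 30719 above the median in NT.

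**Figure D3:**
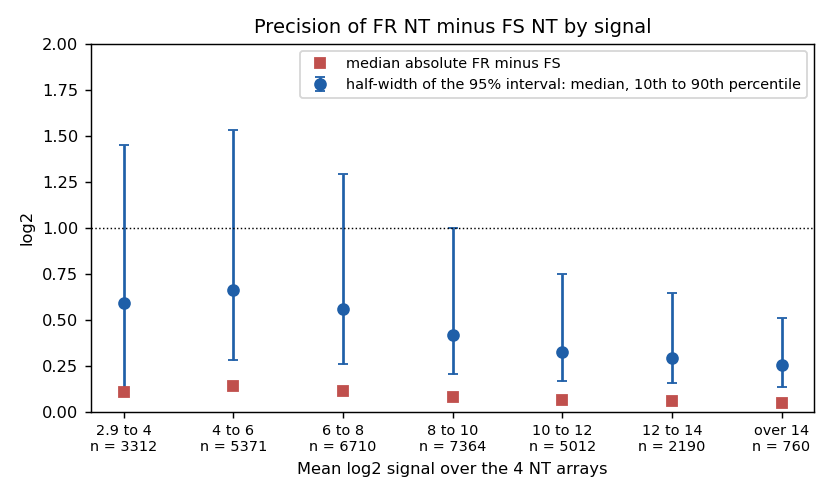
Reach of the 95% interval of FR NT minus FS NT on either side of the difference (blue: median, bars from the 10th to the 90th percentile) and median absolute difference (red squares), in log2 units, by mean signal over the 4 NT arrays; n is the number of probe sets. The reach falls from 0.66 between 4 and 6 to 0.251 above 14, and the red squares stay below it throughout.

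The narrowest intervals among named genes with a mean NT signal above 10 belonged to LOC100037537, UBC1, LOC542989, LOC542907 and LOC542838, with reaches of 0.085 to 0.099 on either side. LOC100037537 differed by -0.12 (95% interval -0.20 to -0.03) and LOC542907 by -0.11 (95% interval -0.21 to -0.02), neither called by limma. UBC1, a ubiquitin-conjugating enzyme that passes ubiquitin to proteins marked for breakdown, read 14.25 and 14.21 in FR NT and 14.27 and 14.29 in FS NT. Its difference was -0.05 (95% interval -0.15 to 0.05), so that a change beyond 0.15 log2 units in either direction lay outside the interval. On a dimmer probe set, at 7.53 to 8.02, its interval reached from -0.83 to 0.65.

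These limits rest on the spread between arrays within all 4 groups, CA included. Part of the spread in NT recurred in both lines. Above the median, the arrays were over 1 log2 unit apart for 1521 probe sets in FR NT and for 1403 in FS NT, and 614 of these were shared. In 402 of the 614 the same replicate number was higher in both lines, and it was replicate 1 in 385 of them, the replicate that also had the stronger 5′ control signals in both lines; the part of transcript ends in this pattern was not tested. In the other 212 the numbers were crossed. FR NT replicate 1 and FS NT replicate 2 were the lower arrays in 141 of them and the higher arrays in 71. Of the 614, 8 differed by over 1 log2 unit between the line means.

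Crossed order was the more common one among probe sets with a symbol, in 14 of 19 (18 genes); these were chosen after their values were seen. hsp16.9A (LOC543277), a small heat shock protein that keeps unfolded proteins soluble, read 11.30 and 12.82 in FR NT and 12.94 and 11.14 in FS NT. GAPN, the non-phosphorylating glyceraldehyde-3-phosphate dehydrogenase that supplies NADPH in the cytosol, read 8.34 and 9.98 in FR NT and 9.84 and 8.31 in FS NT. Both were thus over 1.5 log2 units apart between the arrays of a line, but their line means differed by 0.02 and 0.08. Without replicate 2 of both lines, which leaves each with a single array, hsp16.9A was lower in FR (-1.65), as was the Lea gene Wrab17 (-1.51). Wcor14A (LOC542946), a cold-responsive gene, read 2.76 and 4.43 in FR NT and 4.32 and 2.82 in FS NT, in the same order. Cbf-5 (LOC778407) had the opposite one, with 4.35 and 2.83 in FR NT and 3.09 and 5.01 in FS NT. For these 4 genes FR NT replicate 1 resembled FS NT replicate 2, and FR NT replicate 2 resembled FS NT replicate 1. Rab15 on 1 of its probe sets followed the number instead, at 4.60 and 6.69 in FR NT and 3.54 and 5.50 in FS NT.

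**Figure D4:**
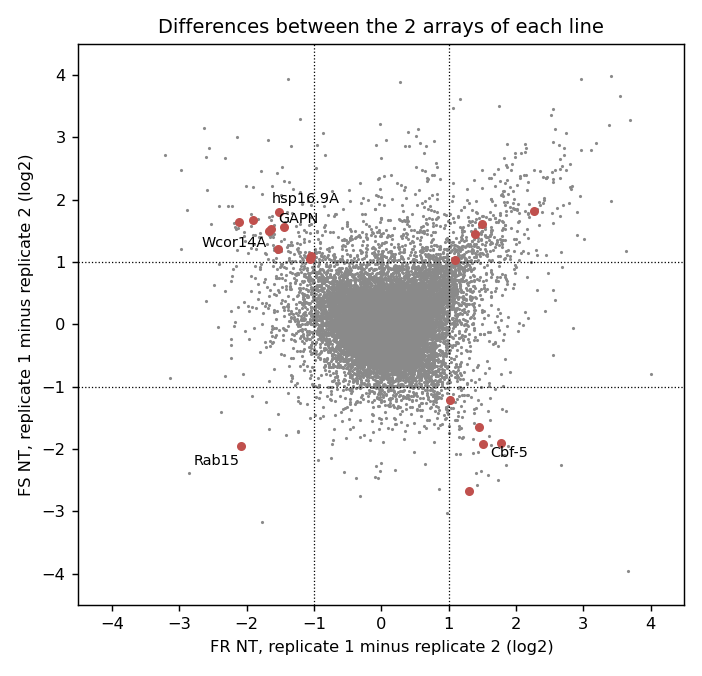
Replicate 1 minus replicate 2 in FS NT (y axis) against the same in FR NT (x axis), in log2 units, for the 31185 probe sets above the median, with dotted lines at 1 and -1; red points are the 19 probe sets with a symbol past these lines in both lines. Points in the upper right and lower left (402) kept the order of the replicate numbers in both lines, and points in the upper left and lower right (212) had it crossed.

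The strongest warm signals were largely shared by the lines. Of the 100 strongest probe sets of FR NT, 95 were among the 100 strongest of FS NT, and 976 of the 1000 strongest were shared. No probe set in either list of 1000 differed by more than 0.465 log2 units or was called, and in the lists of 100 the widest difference was 0.297. Over both lists of 1000 the interval lay within 1 log2 unit for 1001 of 1024 probe sets, and its reach went up to 2.38. The worst rank in the other line of a member of a list of 100 was 158. In comparison, 49 of the 100 strongest of NT were among the 100 strongest of CA. Only 14 of the 50 and 30 of the 100 strongest probe sets of NT have a symbol, so most cannot be named. Of the 25 genes with a symbol and the strongest signals, 24 were shared by the lists of the lines. A readable name is given to 5 of these 25 (rbcl, SAHH, TUBA, H2A-9 and TEF1).

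LOC543231, a gene with no readable name, had the highest mean signal over the 4 NT arrays, at 16.74 and 16.70 in FR NT and 16.72 and 16.71 in FS NT. SAHH, S-adenosylhomocysteine hydrolase, which clears the product that inhibits methyl transfer, ranked 7th and read 16.39 and 16.30 in FR NT and 16.39 and 16.32 in FS NT. TUBA, an alpha-tubulin of the microtubules, ranked 29th at 15.99 and 15.91 in FR NT and 16.01 and 15.91 in FS NT, although its other probe set read 8.73 to 9.13. In each case the arrays of the lines overlapped and the line difference was at most 0.01. The symbol rbcl (LOC100049018), the large subunit of rubisco, is given to 28 probe sets that disagree, with 2 above 16 and 11 at the floor, so that its rank of 2 cannot be read as the level of that gene. On FS NT replicate 1 its strongest probe set, at 16.87, was above LOC543231. The remaining symbols among the 25 carry LOC numbers only and had line differences between -0.09 and 0.08.

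Histones were strong in both lines. H2A-9 (LOC732714), a histone H2A that packs newly made DNA, ranked 47th at 15.94 and 15.73 in FR NT and 15.79 and 15.82 in FS NT. wcH2B-8 (LOC543184), a histone H2B, read 15.27 and 15.15 in FR NT and 14.93 and 15.35 in FS NT (95% interval -0.87 to 1.01). The 18 probe sets of 5 histone genes read 5.18 to 15.9, with a median difference of -0.05. Of these, 0 were called, beside 0.0213% of all tested. The widest was H2A-2 (LOC732712), which read 11.05 and 10.23 in FR NT and 10.71 and 11.38 in FS NT, a difference of -0.41 (95% interval -1.47 to 0.65) that was smaller than the gap between the arrays of either line. The 12 probe sets of 7 tubulin and profilin genes read 8.73 to 16.01, none called, beside 0.0213% of all tested. All 12 intervals lay within 1 log2 unit, and the largest difference was 0.0914. tubb1 (LOC543257), a beta-tubulin, read 15.25 and 15.09 in FR NT and 15.19 and 15.31 in FS NT.

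Genes of wall formation were equally level. COMT1 (LOC543449), a caffeic acid O-methyltransferase of lignin synthesis, read 14.24 and 14.04 in FR NT and 14.18 and 14.24 in FS NT, with an interval of -0.34 to 0.20. XTH, a xyloglucan endotransglucosylase that remodels growing walls, read 11.86 and 11.86 in FR NT and 11.94 and 11.77 in FS NT, with a reach of 0.191. Among 6 translation probe sets the widest difference was that of eIF4E (LOC543485), the cap-binding initiation factor, at 12.06 and 11.90 in FR NT and 12.05 and 12.13 in FS NT (-0.11, 95% interval -0.31 to 0.09). The fructan exohydrolase 1-FEHw2 (LOC543441), which releases fructose from stored fructan, read 12.64 and 12.40 in FR NT and 12.58 and 12.66 in FS NT (-0.11, 95% interval -0.60 to 0.39).

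Defence, antioxidant, hormone and primary metabolism genes held no calls either, beside 0.0213% of all tested probe sets. LTP3 (LOC543095), a lipid transfer protein of the plant surface, read 14.56 and 14.76 in FR NT and 14.97 and 14.57 in FS NT. CAT1, a catalase that breaks down hydrogen peroxide, read 8.66 and 9.47 in FR NT and 9.68 and 8.91 in FS NT (-0.23, 95% interval -1.24 to 0.77). PER1 (LOC543108) had the widest difference among 11 antioxidant probe sets, with 2.55 and 2.57 in FR NT against 2.98 and 2.76 in FS NT (-0.31, 95% interval -0.86 to 0.24). GA20ox1b (LOC543326), a gibberellin 20-oxidase of growth hormone synthesis, read 4.01 and 4.79 in FR NT and 5.19 and 4.66 in FS NT (-0.53, 95% interval -1.42 to 0.37). Of these 4, PER1 had arrays that did not overlap between the lines, at signals near the median. On its brighter probe set they did overlap, with 4.82 and 4.58 in FR NT and 4.51 and 5.22 in FS NT. There the difference was -0.16 (95% interval -2.13 to 1.81). Pgk-1 (LOC543496), a phosphoglycerate kinase, read 12.97 and 13.14 in FR NT and 13.38 and 12.98 in FS NT (-0.12, 95% interval -0.51 to 0.27).

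Over the 12 gene lists and the leaf, root and seed markers, 127 probe sets of 77 genes were measured and 0 were called, beside 0.0213% of all tested. Arrays of the lines did not overlap for 13 of the 127 (10.2%), beside 10.4% of all tested. The medians of the 12 lists lay between -0.07 and 0.00098, beside 0 over all tested probe sets. Of the 93 above the median, 71 had an interval within 1 log2 unit.

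The CBF genes matched here, a subset of those in the study, gave low signals in the warm crown of both lines. Cbf-3, Cbf-4, Cbf-6 and Cbf-12 were among those not analysed. The 12 probe sets (11 genes) read 2.15 to 5.85, 7 had a mean over the 8 arrays above the median, and 3 were at the floor on all 4 NT arrays. Cbf-A22 (LOC100037633) read 4.55 and 4.77 in FR NT and 4.77 and 4.79 in FS NT, a difference of -0.12 (95% interval -0.73 to 0.50). Cbf-B22 (LOC100037634) read 5.85 and 5.58 in FR NT and 5.62 and 5.43 in FS NT on its brighter probe set, a difference of 0.19 (95% interval -0.44 to 0.81). Cbf-14 (LOC606349) read 3.97 and 4.09 in FR NT and 3.90 and 4.30 in FS NT, a difference of -0.07 (95% interval -0.51 to 0.36). In these 3 genes the arrays of the lines overlapped and a 2-fold difference lay outside the interval. For Cbf-5 (interval -2.68 to 1.76), Cbf-2 (-2.06 to 2.11) and Cbf-19 (-1.02 to 1.02) it did not. The fit shares the spread within all 4 groups, CA included. On the NT arrays Cbf-2 read 2.62 to 2.73 and Cbf-19 3.07 to 3.08, so the width of their intervals does not reflect NT spread. Cbf-5.3, Cbf-9, Cbf-10, Cbf-21.1 and Cbf-D22 read at most 2.41 on every NT array, too near the floor to show a difference. Cbf-21.1 was higher in FR by 0.0096 without FS NT replicate 1 and by 0.10 without FS NT replicate 2, at signals under the array medians. Both fits leave FS with a single array.

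Of the 11 Cor/Lea genes matched, 3 (Wcor825, Wlt10 and Rab15) reached signals above 6 in the warm crown and the others stayed under 5, in both lines. Their 18 probe sets read 2.15 to 12.5, with a median difference of 0. Of these, 0 were called, beside 0.0213% of all tested. Wcor825 (LOC543254), a cold-regulated gene, read 12.28 and 11.92 in FR NT and 12.03 and 12.50 in FS NT on its brighter probe set (-0.17, 95% interval -0.75 to 0.42). Wlt10 (LOC543383), a gene induced by low temperature, read 8.93 and 8.69 in FR NT and 8.83 and 8.71 in FS NT (0.04, 95% interval -0.28 to 0.36). The arrays of the lines overlapped for both genes. Rab15 (LOC543293), a dehydrin-type protein induced by abscisic acid, read 6.11 and 7.17 in FR NT and 6.45 and 6.37 in FS NT on its brightest probe set. The probe set of Rab15 that followed the replicate number differed by 1.13, with an interval of -1.35 to 3.61.

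Wrab17 (LOC542855), an abscisic acid-responsive Lea gene, read 3.08 and 4.95 in FR NT and 4.59 and 3.85 in FS NT, with an interval of -1.96 to 1.54. Wrab18 (LOC542804), another of that kind, read 2.28 and 2.31 in FR NT and 2.41 and 2.38 in FS NT, and LEA1 (LOC543476) 2.43 and 2.43 in FR NT and 2.43 and 2.41 in FS NT, all under the array medians. COR410, a dehydrin found at the plasma membrane, and Wcor14B (LOC100125679) stood at 2.15 on every NT array. The Em genes EMH2 (LOC543480) and EM (LOC543497), known from maturing seeds, read 2.15 to 3.22.

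**Figure D5:**
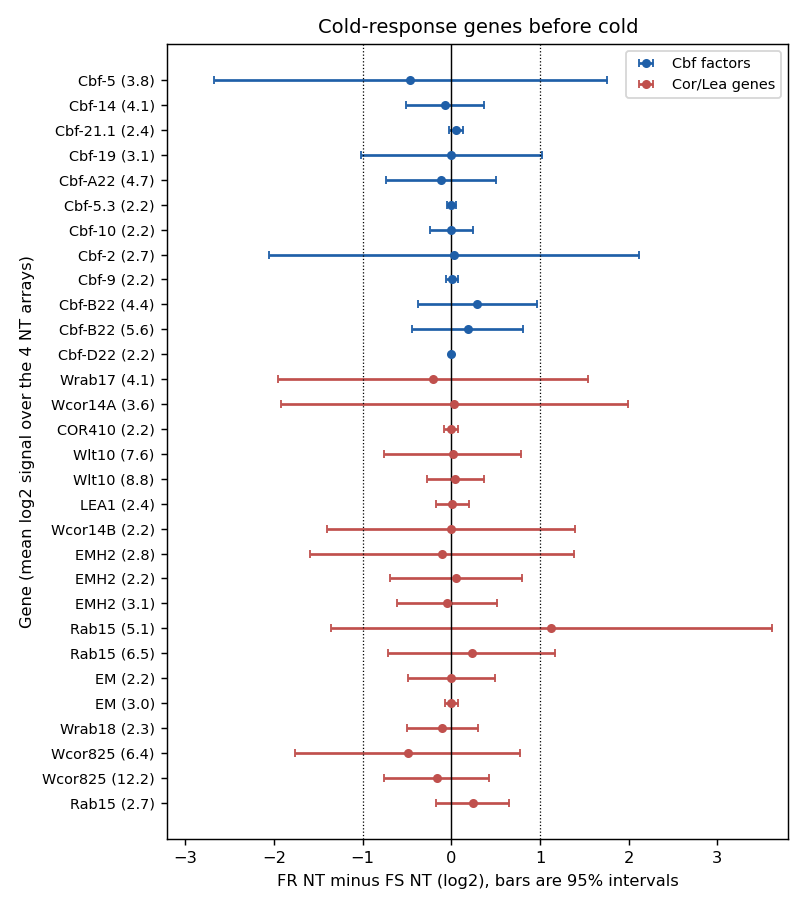
FR NT minus FS NT in log2 units (x axis) with its 95% interval for 12 CBF and 18 Cor/Lea probe sets, each with its gene name and mean NT signal (y axis); dotted lines mark a difference of 1. Every interval includes 0, and the widest belong to Rab15, Cbf-5 and Cbf-2. The intervals use the spread within all 4 groups, CA included.

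Crowns were cut so as to avoid leaf and root material, and markers of both were read. Photosynthesis transcripts, the green leaf markers, gave strong signals in both lines. OEE1 (LOC543291), a subunit of the oxygen-evolving complex of photosystem II, read 14.56 and 14.71 in FR NT and 14.71 and 14.52 in FS NT. OEE2 (LOC543290), another such subunit, read 14.00 and 13.91 in FR NT and 14.36 and 13.95 in FS NT. PRK (LOC543283), phosphoribulokinase of the carbon-fixing cycle, read 11.53 and 12.10 in FR NT and 12.34 and 11.63 in FS NT, again with FR NT replicate 2 and FS NT replicate 1 above the others. Over the 6 probe sets of 4 green leaf genes, 0 were called, beside 0.0213% of all tested, and 5 were above the median. Their mean level was 11.4 and 11.5 in FR NT and 11.7 and 11.4 in FS NT. The one root marker matched, ALMT1-1 (LOC543388), a root malate transporter, read 2.16 to 2.45. Of 11 seed storage probe sets (gliadins and glutenins) 10 were under the median, and the remaining one, Glu-D3 on 1 of its probe sets, read 6.04 on all 4 NT arrays.

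The line difference in NT was also set against that in CA. The limma contrast of the 2 differences called 66 of 61115 probe sets (0.108%), and FR CA against FS CA gave 228 calls (0.373%). None of the 13 probe sets called in NT was called in CA in the same direction. Among the genes named here none was called in that contrast, with the lowest limma adjusted p of 0.151 for GLU1A. The 4 unnamed called probe sets were, as their lines differed by at most 0.00057 after cold. Their mean CA signals were 2.15 to 2.33, at or near the floor, where a line difference could hardly show. These probe sets were chosen on their NT difference, which is part of that contrast.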

How the data were processed

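The deposited table holds log2 values that the authors obtained from the 8 arrays by gcRMA background correction and normalization (RMA and GCRMA in the submitters' notes, no version given), for 61290 probe sets. gcRMA pulls dim signals to a common floor, which shrinks differences there. The 175 control probe sets (111 AFFX and 64 RPTR) were not tested. In R 4.3.3 with limma 3.58.1, means of the 4 groups were fitted over all 8 arrays with a variance trend on signal (4 residual degrees of freedom, 0.623 prior), with Benjamini-Hochberg adjustment over 61115 probe sets. Intervals are 95% intervals of that model, not adjusted for their number, and the number of arrays limits the precision. The fit was tested on simulated data with independent errors and differences planted only in probe sets well above the floor. Recovery of differences near the floor was therefore not checked. Names came from the platform annotation, with 770 of its 771 symbols found in RefSeq's wheat gene table and 119 given a readable name there or in the study. List members were assigned by symbol or synonym, as no gene descriptions were used here. Chosen were the called probe sets with the widest differences (at most 2 unnamed a direction) and the 5 widest uncalled with a symbol a direction. To these came the 25 strongest genes with a symbol and the 5 narrowest intervals above a signal of 10. All matched CBF and Cor/Lea members and the widest and strongest of each other list were added. Some members so chosen are not printed above, among them eIF-2-beta, Prx1, GA20ox1d, 1 probe set of Rab15 and THI1.1. THI1.1 was the widest of the defence list (0.24, at signals of 2.16 to 2.55). The bins by NT signal were chosen after the data were seen. Unnamed probe sets are described by their values. Members, lists and rules were chosen with earlier results of these data known. Alternatives changed the arrays fitted, the variance model, the filter, the scaling and the replicate block.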

Additional observations from a re-analysis of the deposited data

Results flagged for a closer look

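For 4 unnamed probe sets the line difference in NT differed from that in CA by a limma test of the difference itself. All 4 lie near the floor and were chosen on their NT difference. The NT difference minus the CA difference was 0.58 (limma adjusted p = 0.00035) and 0.23 (adjusted p = 0.00252) for those higher in FR NT, and -0.59 (adjusted p = 0.00827) and -0.54 (adjusted p = 0.0394) for those lower. None of the 4 NT differences was called with robust variances, with values raised to the array median, after centring or relative to the spike-ins. Groups of 2 arrays are too small to check for an outlying array.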

How the results depend on the processing

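The 13 calls of FR NT against FS NT became 28 with the 4 NT arrays only (4 of the 13 among them), 4 with robust variances, 0 above the median (409 at an unadjusted p under 0.05 by limma), 1 when values were raised to the array median, 0 after centring (725 at an unadjusted p under 0.05), 2 relative to the poly-A spike-ins and 22 at an adjusted p under 0.1. Without 1 array they numbered 14 to 1212. Without NT replicate 2 of both lines, an alternative chosen after seeing the data, there were 2834. The main calls were kept without any 1 NT array, but those fits leave a line with a single array and call many more probe sets. Keeping the calls there is thus no separate support for them. Most added calls lay under the median. They were mostly higher in FR without an FR array and lower without an FS array.

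Of the probe sets described singly, 4 were called, against 1 with the 4 NT arrays only, 0 with robust variances, above the median, with raised values or after centring, and 1 relative to the spike-ins (that with the 5.14-fold difference). Without 1 array 3 to 7 were called, and 0 to 2 list members against 0. Without NT replicate 2 of both lines these were 9 and 7. With raised values both probe sets called lower in FR turned to 0.0097. Of 1984 comparisons of single probe sets, 1942 kept their side of the threshold. The direction of an uncalled probe set could still turn. That of hsp16.9A went from 0.02 to -1.65 without replicate 2 of both lines, which leaves each with a single array.

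Between 24574 (with a margin of 0.58) and 36740 probe sets had an interval within the margin over all alternatives, and 29974 to 34021 without 1 array. The median reach of the interval was 0.701 relative to the spike-ins and 0.468 to 0.58 without 1 array. The median absolute difference between arrays of the lines over all probe sets was 0.023, with 0.021 to 0.025 without 1 array, 0.155 above the median, 0.0402 after centring and 0.0284 after quantile normalization. The lists of the 100 strongest shared 90 to 95 without 1 array. Causes of these shifts were not tested.

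With a replicate block 9 probe sets were called, all among the 13, and the call at -0.54 was lost. The labels do not say what a replicate number shares. Deviations of same-numbered arrays correlated at 0.081 between FR NT and FS NT and at 0.18 to 0.36 in the other 5 pairs of groups. The 5′ controls of sucrose synthase and glucose-6-phosphate dehydrogenase and the spike-ins followed the number in all 4 groups. The 5′ control of ubiquitin did not in FR CA, at 14.22 for replicate 1 and 14.35 for replicate 2. The fit without the block was kept because 1 of the correlations was under 0.1, the level set for pairing. Whether a number marks a shared batch is not settled by these values.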
